A study of Mus musculus with 3 samples.

Results

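The RNA brought down with an antibody against Z-form nucleic acid (ZNA) from the hippocampus of PS19 mice was compared with that from wild-type (WT) mice, for single subfamilies of the mouse transposable elements. Both groups were C57BL/6 animals aged 9 months, and the precipitated RNA was sequenced (RIP-seq). PS19 animals express a mutant human tau from a transgene under the mouse prion promoter and develop tau pathology. WT mice lack the transgene. Each group was 1 library, and the labels do not say whether a library pools several mice. No value below has a replicate error, and no test of the genotype could be made. The other library of the series, a pull-down of the sensor protein ZBP1 from PS19 hippocampus, is given beside single results only. No input or isotype-control library was used here, so a level cannot be split into RNA that was bound and RNA that was abundant. Nor can fewer cells of a type and less RNA per cell be told apart.

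The repeats were chosen by reads and not by their change. The 2 ribosomal RNA names, LSU-rRNA_Hsa and SSU-rRNA_Hsa, were dropped, and counts were scaled to the reads that remained. A name was kept with at least 20 reads over both ZNA libraries, which 711 of the 18484 listed names reached. Of these, 670 were named as LINE (142), SINE (32), LTR elements (417) or DNA transposons (79), and these 670 are described here. Another 309 names of the 4 classes had between 1 and 19 reads, and 76 had no read in either library. The names left out held 0.188% of the LINE reads, 0.0492% of the SINE reads, 0.954% of the LTR reads and 6.49% of the DNA transposon reads. Just under the limit, the 9 names with 19 reads had a median PS19 over WT ratio of 1.02 (0.343 to 1.77). Just above it, the 13 names with 20 reads had a median of 1.10 (0.157 to 2.67).

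Z-RNA is a left-handed form of double-stranded RNA. ZBP1 reads it through its Z-nucleic-acid-binding domains and can start necroptosis and inflammatory signalling. Transposable elements are a known source of double-stranded RNA, because copies that lie in opposite orientation in transcripts, or that are read from both strands, can pair. LINE-1 elements encode their own reverse transcriptase, and the L1Md subfamilies are the youngest in the mouse. SINEs are short elements that depend on LINE enzymes. An LTR element is of retroviral type. Its internal part (names ending in -int or -I) lies between a pair of long terminal repeats (LTRs), which hold the promoter. The internal part holds viral genes in autonomous retroviruses, but need not in non-autonomous groups such as ORR1 and MT. Most genomic copies of an LTR element are LTRs alone, left after recombination. DNA transposons are old in the mouse and have long been immobile.

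The PS19 library held 2918985 reads on repeat names and the WT library 3234786, of which 308613 (10.6%) and 145372 (4.49%) lay outside rRNA. The ZBP1 library held 1425383 reads, with 74474 (5.22%) outside rRNA. Levels are reads per 1000000 reads outside rRNA, so that 1 read was worth 3.24 in PS19, 6.88 in WT and 13.4 in the ZBP1 library. Each ratio is the PS19 level over the WT level, with an exact 95% interval for counting error alone. The spread between mice is in none of these intervals, and without molecular identifiers reads need not be separate molecules. A name pools all genomic copies of its subfamily, so no position or strand can be given, and copy number and length keep levels of different names from being compared. The files list repeat names only, so the hippocampal label could not be checked against marker genes.

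One property of the scale touches every ratio. Small structural RNAs took 7.81% of the reads outside rRNA in WT and 2.76% in PS19, a ratio of 0.353 (0.343 to 0.363). The 4 transposon classes together therefore took a larger share of the PS19 library, 94.5% against 89.3%, which is a ratio of 1.06 (1.05 to 1.06). Scaled to the reads on transposons alone, each ratio is lower by that factor. Scaled to all reads with rRNA, each ratio is 2.35-fold higher, because rRNA took less of the PS19 library, and the MIR and MLT1 groups, below 1 on the scale used here, lie at 2.02 and 2.20. Directions below hold for the scale outside rRNA, and the value on transposon reads is given where it turns the side of 1 for a class, group or named repeat. Differences between groups of repeats do not depend on the scale.

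Most subfamilies sat near the same ratio. The median log2 ratio of the 670 names was 0.08, with quartiles of -0.14 and 0.31, and 405 names were above 1. A PS19 level at least 2-fold above that of WT was reached by 30 of the 670, and one at least 2-fold below by 16. PS19 had 2.12 times the reads of WT outside rRNA, so the 20-read limit is met more easily by names high in PS19. With 1 read in each library as the limit, 61 of 882 transposon names passed upwards and 82 downwards, which turns the balance. That limit leans downwards: at these depths equal counts, such as 1 and 1, already lie past 2-fold lower. It also drops names without a read in the shallower WT library. Over all 711 names compared at the 20-read limit, 4.92% passed 2-fold upwards and 2.95% downwards. These were 35 and 21 names, against 28 and 26 on transposon reads and 565 and 3 on all reads. Intervals lay wholly above 1 for 99 of the 670 transposon names and wholly below 1 for 35. Over the 711 names, 14.6% lay above and 6.47% below. The 670 transposon names make up most of the 711, so near-equal shares follow from the overlap and say nothing about transposons.

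Large ratios came from names with few reads. All 46 transposon names past 2-fold had fewer than 100 reads over both libraries. None of the 355 names with at least 100 reads passed 2-fold in either direction, and their ratios ran from 0.573 (L1MCb) to 1.97 (L1ME3Cz). For the 101 names with at least 1000 reads the range narrowed to 0.787 (RMER5) to 1.35 (RLTR4_MM-int). The abundant subfamilies thus differed little between the 2 libraries next to the thinly covered ones.

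**Figure D1:**
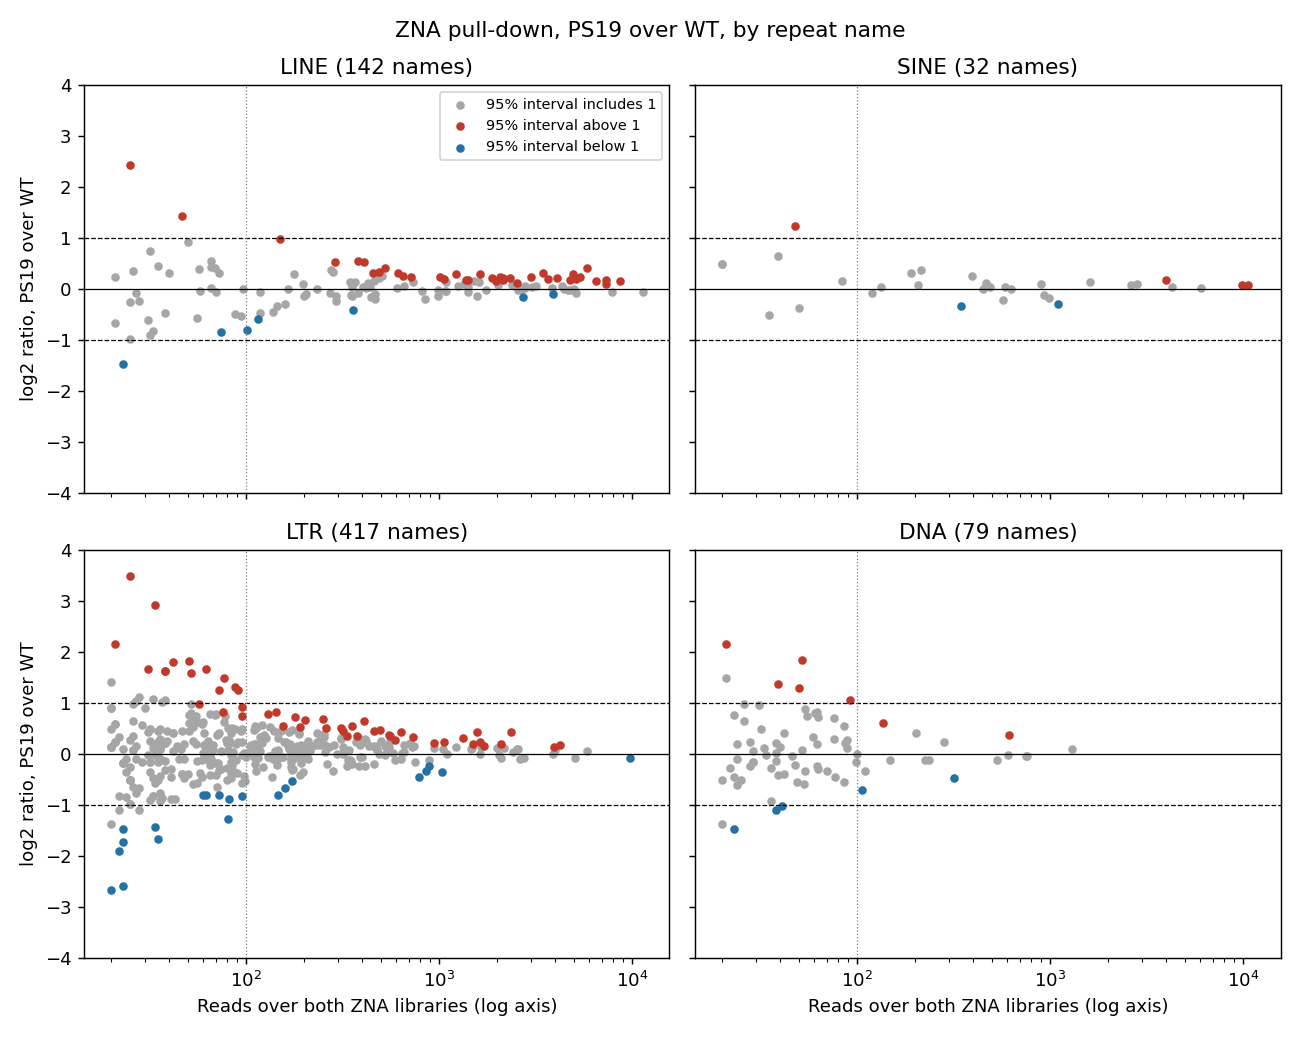
Log2 ratio of the PS19 over the WT ZNA library (vertical axis) against the reads of a name over both libraries (horizontal axis, log scale), with 1 point per name and a panel for each of LINE, SINE, LTR and DNA. Dashed lines mark 2-fold and the dotted line 100 reads; every point past a dashed line lies left of the dotted one.

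LINE names took the largest share of reads outside rRNA, 48.8% in PS19 and 45.9% in WT, against 32.2% in the ZBP1 library. Their pooled ratio was 1.06 (1.05 to 1.07) and their median log2 ratio 0.06. On transposon reads the pooled ratio was 1.007 (0.998 to 1.02), an interval that included 1. Past 2-fold lay 3 of the 142 names, 2 of them higher in PS19 and 1 lower. Intervals lay above 1 for 38 names and below 1 for 7, against 22 and 17 on transposon reads. Within the class, the L1Md names stood above the older Lx and L1Lx names.

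The 25 L1Md names took 18.0% of the reads outside rRNA in PS19 and 16.0% in WT, a pooled ratio of 1.13 (1.11 to 1.14). Of these names 24 were above 1, with 15 intervals above 1 and none below. On transposon reads 18 were above 1 and 9 intervals lay above 1, with a pooled ratio of 1.07 (1.05 to 1.08). The 25 Lx and L1Lx names, from an older rodent LINE-1 lineage, took 21.0% and 20.7%, a pooled ratio of 1.01 (1.001 to 1.03), which turned to 0.960 (0.947 to 0.973) on transposon reads. Only 12 of them were above 1. The 4 L1Lx names among them were all above 1 and pooled to 1.10 (1.06 to 1.13), near the 1.09 of the L1MdA names. The L1Md ratio exceeded the ratio of Lx and L1Lx together 1.11-fold (95% interval 1.09 to 1.13, counting error only). The 68 L1M names, which are shared with other mammals and older still, had a pooled ratio of 1.04 (1.02 to 1.07), which turned to 0.987 (0.961 to 1.01) on transposon reads. The L1Md ratio exceeded it 1.08-fold (1.05 to 1.11).

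The L1Md names differed among themselves. L1MdV_III held 4313 reads in PS19 and 1526 in WT, levels of 13975 and 10497, the highest ratio of the group at 1.33 (1.26 to 1.41). L1MdV_I followed with 2518 and 953 reads, a ratio of 1.24 (1.15 to 1.34). L1MdV_II held 1733 and 770 reads and had an interval that included 1, with a ratio of 1.06 (0.973 to 1.16). So the 3 L1MdV names did not move as a block, although their pooled ratio was 1.24 (1.19 to 1.29).

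L1MdN_I had a ratio close to that of L1MdV_III, with 388 and 138 reads and 1.32 (1.09 to 1.62). The L1MdFanc names pooled to 1.20 (1.15 to 1.25). L1MdFanc_II held 3580 and 1375 reads, a ratio of 1.23 (1.15 to 1.31). These are among the older members of the L1Md series. The still-mobile subfamilies carry the letters Tf, Gf and A, for the kind of promoter repeat they have.

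The L1MdTf names pooled to 1.03 (0.969 to 1.09), an interval that included 1, and to 0.972 on transposon reads. L1MdTf_III, with 1739 reads in PS19 and 834 in WT, was the only L1Md name below 1 on the reads outside rRNA, with a ratio of 0.982 (0.904 to 1.07). L1MdTf_I held 754 and 308 reads, a ratio of 1.15 (1.01 to 1.32). The 7 L1MdA names ran from 1.02 for L1MdA_VI (2075 and 957 reads, 0.966 on transposon reads) to 1.23 for L1MdA_IV (1185 and 454 reads). L1MdA_IV had an interval of 1.10 to 1.37 that did not reach the ratio of L1MdA_VI. L1MdF_IV, the L1Md name with most reads (6109 and 2582), had levels of 19795 and 17761 and a ratio of 1.11 (1.06 to 1.17). In the ZBP1 library it had a level of 11789.

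**Figure D2:**
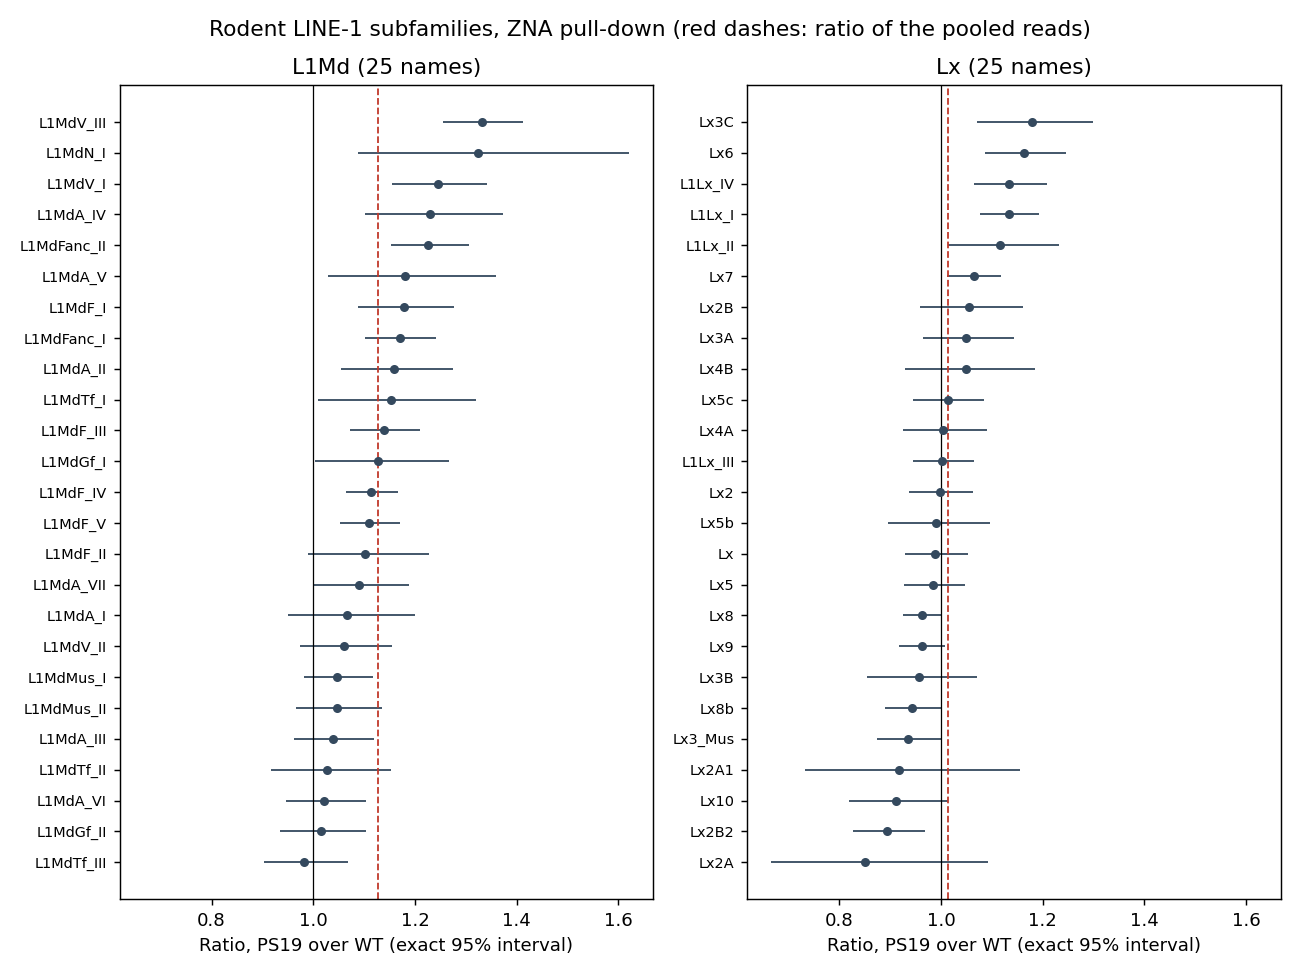
PS19 over WT ratio of each L1Md and each Lx or L1Lx name (linear axis), with exact 95% intervals for counting error. Red dashes mark the pooled ratio of each group, 1.13 for L1Md and 1.01 for Lx and L1Lx together. L1MdV_III and L1MdN_I lie highest, and the Lx names spread on both sides of 1.

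Lx8 had more reads than any other LINE name, 7631 in PS19 and 3734 in WT, levels of 24727 and 25686. Its ratio was 0.963 (0.926 to 1.001). Lx9 was alike at 5275 and 2583 reads, a ratio of 0.962 (0.918 to 1.01). Lx7 lay on the other side, with 5056 and 2238 reads and a ratio of 1.06 (1.01 to 1.12), which is 1.01 when taken on transposon reads. L1Lx_I held 5167 and 2147 reads, a ratio of 1.13 (1.08 to 1.19). The names of this lineage ran from 0.852 for Lx2A (188 and 104 reads) to 1.18 for Lx3C (1476 and 590 reads), and intervals lay above 1 for 6 and below 1 for 2, against 4 and 8 on transposon reads.

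The remaining LINE names with many reads ran from near 1 to above the pooled L1Md ratio. L2a, from a LINE lineage long dead in mammals, held 1645 and 738 reads, a ratio of 1.05 (0.962 to 1.15), or 0.993 on transposon reads. L1M2 held 1337 and 540 reads, a ratio of 1.17 (1.05 to 1.29). L1_Mur3 held 2599 and 1062 reads, a ratio of 1.15 (1.07 to 1.24). MusHAL1, of a LINE-1 group that has lost its second reading frame, held 356 and 133 reads, a ratio of 1.26 (1.03 to 1.55). The 6 L2 names pooled to 1.09 (1.04 to 1.16).

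Among LINE names with at least 50 reads, the highest ratio was that of L1ME3Cz and the lowest that of L1_Mus3. L1ME3Cz held 121 reads in PS19 and 29 in WT, levels of 392.1 and 199.5, a ratio of 1.97 (1.30 to 3.06). In the ZBP1 library its level of 282.0 fell between them. L4_A_Mam, of an ancient LINE lineage, held 40 and 10 reads, a ratio of 1.88 (0.926 to 4.23), and HAL1M8 held 50 and 16, a ratio of 1.47 (0.824 to 2.77), so both intervals included 1. L1MDa (288 and 93 reads) was 1.46-fold higher in PS19 (1.15 to 1.86), and L1MEc (307 and 100 reads) 1.45-fold (1.15 to 1.83). At the other end, L1_Mus3 held 40 and 34 reads, 1.80-fold lower in PS19 (1.11 to 2.92). L1MCb held 56 and 46 reads, 1.74-fold lower (1.15 to 2.62).

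The 3 LINE names past 2-fold were thinly covered. L1M2c held 40 reads in PS19 and 7 in WT, a ratio of 2.69 (1.19 to 7.12). L1M3a held 23 and 2, a ratio of 5.42 (1.34 to 47.4). L1M8 held 10 and 13, a ratio of 0.362 (0.142 to 0.895). Over the 68 L1M names, 37 were above 1, with 10 intervals above 1 and 4 below. On transposon reads 29 were above 1, with 7 intervals above and 8 below.

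SINE names took 11.3% of the reads outside rRNA in PS19 and 10.9% in WT, against 22.2% in the ZBP1 library. Their pooled ratio was 1.04 (1.02 to 1.06), which turned to 0.982 (0.964 to 1.001) on transposon reads. Of 32 names, 4 had intervals above 1, 2 below, and 1 passed 2-fold. On transposon reads 1 interval lay above 1 and 5 below. The rodent SINEs thus stayed close to the transposon background, and the pooled ratio of MIR and other ancient SINEs lay below it.

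B4A, a composite of a tRNA-like and a B1-like part, had the most SINE reads. It held 7319 in PS19 and 3265 in WT, levels of 23716 and 22460, a ratio of 1.06 (1.01 to 1.10). B3, a relative of B2 that derives from a tRNA, held 6776 and 3038, a ratio of 1.05 (1.01 to 1.10). On transposon reads B4A turned to 0.999 and B3 to 0.994. In the ZBP1 library B4A stood at 40377 and B3 at 43935, above the levels of both ZNA libraries.

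ID_B1 held 2820 and 1183 reads, levels of 9138 and 8138, the highest ratio among SINEs with at least 1000 reads, at 1.12 (1.05 to 1.20). B4 (4108 and 1908 reads) had 1.01 and B3A (2947 and 1358 reads) 1.02, which turned to 0.959 and 0.967 on transposon reads. The 15 B1 and PB1 names, which stem from the 7SL RNA as human Alu elements do, pooled to 1.04 (0.987 to 1.10), or 0.984 (0.933 to 1.04) on transposon reads. B1_Mus1 held 1124 and 482 reads, a ratio of 1.10. B1_Mur1 (369 and 202 reads) had 0.860 and B1F2 (157 and 57 reads) 1.30, and the intervals of both included 1. PB1 was the SINE past 2-fold, with 40 and 8 reads and a ratio of 2.36 (1.09 to 5.83).

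MIR elements predate the split of the placental mammals. The 8 names of MIR and other ancient SINEs took 0.566% of the reads outside rRNA in PS19 and 0.660% in WT. Their pooled ratio was 0.858 (0.792 to 0.929), or 0.811 (0.749 to 0.878) on transposon reads. The names did not all lie lower: 3 of the 8 were above 1, the highest being AmnSINE1 at 1.57. Intervals lay below 1 for 2 names and above 1 for 0. MIRb held 695 and 399 reads, levels of 2252 and 2745, and was 1.22-fold lower in PS19 (1.07 to 1.38). MIRc held 218 and 130 reads and was 1.27-fold lower (1.01 to 1.58). MIR itself, with 644 and 341 reads, had a ratio of 0.890 (0.779 to 1.02), so its interval included 1. The B1 ratio exceeded the ratio of this group 1.21-fold, a log2 difference of 0.28 (0.14 to 0.42). MIRb stood at 3531 in the ZBP1 library, above both ZNA levels.

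**Figure D3:**
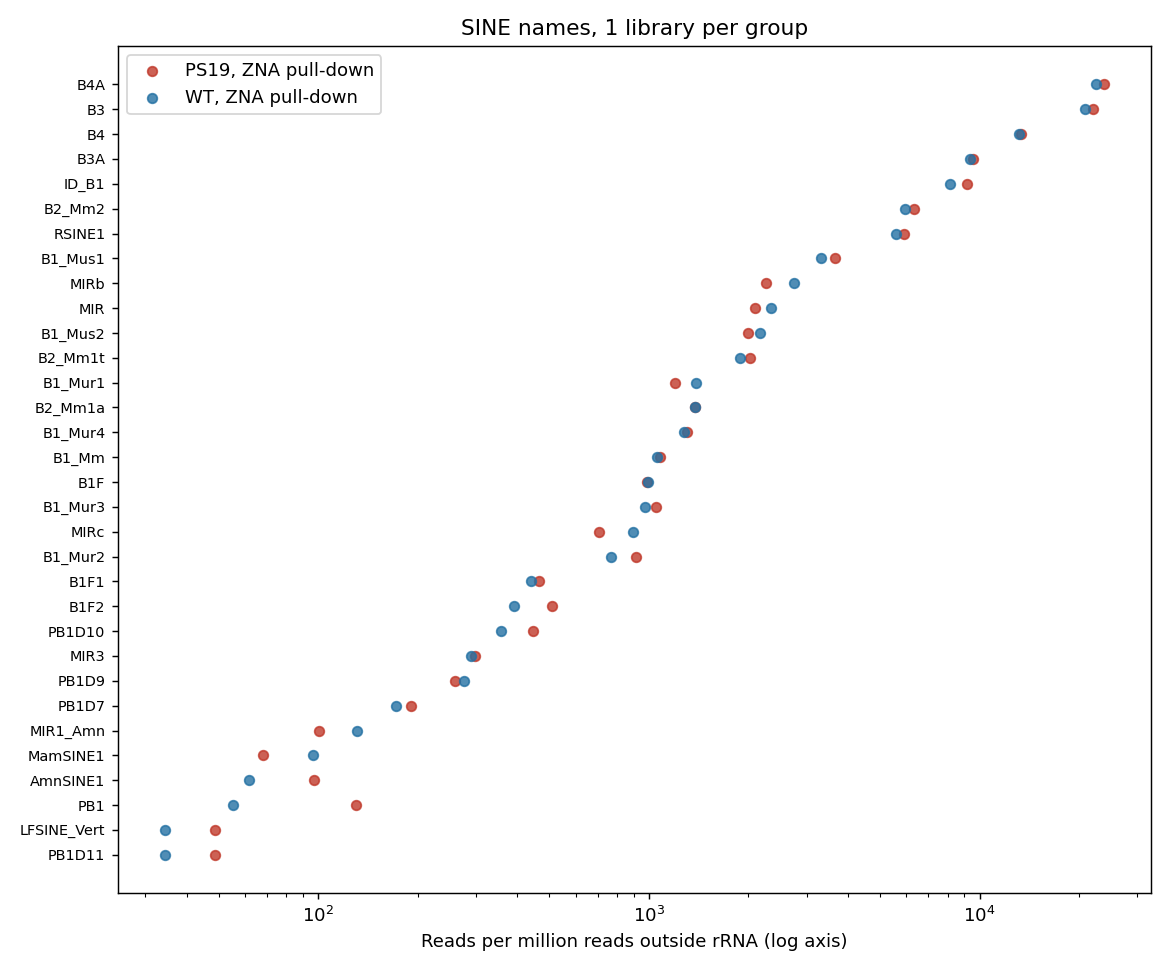
Level of each of the 32 SINE names in the WT and the PS19 ZNA library, in reads per 1000000 reads outside rRNA on a log axis. B4A and B3 lead in both libraries, and for MIRb and MIRc the PS19 level lies below the WT level.

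LTR elements took 32.2% of the reads outside rRNA in PS19 and 30.5% in WT, a pooled ratio of 1.06 (1.04 to 1.07), and held 32 of the 46 names past 2-fold. On transposon reads the pooled ratio was 0.999 (0.988 to 1.01). Of the 32, 21 were higher in PS19 (5.04% of the 417 names) and 11 lower (2.64%), near the 4.92% and 2.95% of all names compared. Intervals lay above 1 for 50 and below 1 for 21, against 36 and 32 on transposon reads. The groups within the class were ordered more widely than those of LINEs. Gammaretroviral and ERVB-type elements lay highest, the pooled IAP and MT ratios lay near 1, and MLT1 lay lowest.

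The 15 gammaretroviral names (relatives of murine leukaemia virus and of VL30) pooled to 1.32 (1.22 to 1.42), and 12 of them were above 1. On transposon reads the pooled ratio was 1.24 (1.15 to 1.34). Most of their reads lay on RLTR4_MM-int, the internal part of an element close to murine leukaemia virus. It held 1744 reads in PS19, 608 in WT and 302 in the ZBP1 library. Its levels were 5651, 4182 and 4055, so the PS19 ZNA library stood above the others. Its ratio of 1.35 (1.23 to 1.48) was the highest among the names with at least 1000 reads. RLTR1B-int held 113 and 30 reads, a ratio of 1.77 (1.18 to 2.75).

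The 34 names of the ERVB, MYSERV, MurERV4, MMERVK and BGLII elements, mostly of the class II retroviruses, pooled to 1.22 (1.15 to 1.29). On transposon reads this was 1.15. Of these names 25 were above 1. Past 2-fold lay 5 that were higher (14.7%) and 1 that was lower (2.94%), against 4.92% and 2.95% of all names compared. The median of the group was 74.5 reads per name over both libraries. Among all transposon names under 100 reads, 9.52% passed 2-fold upwards and 5.08% downwards. MurERV4-int held 402 and 158 reads, levels of 1303 and 1087, a ratio of 1.20 (0.995 to 1.45). MYSERV-int held 409 and 150 reads, a ratio of 1.28 (1.06 to 1.56). Intervals lay above 1 for 8 of the 34 names and below 1 for none. Over all names compared, 14.6% lay above and 6.47% below.

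The members past 2-fold were LTR and internal names of ERVB7, ERVB2 and BGLII. ERVB7_1-LTR_MM held 45 reads in PS19 and 7 in WT, levels of 145.8 and 48.2, a ratio of 3.03 (1.36 to 7.96). In the ZBP1 library its level was 228.3. ERVB7_2-LTR_MM held 27 and 4 reads, a ratio of 3.18 (1.11 to 12.5). BGLII_Mus held 61 and 12 reads, a ratio of 2.39 (1.28 to 4.89). BGLII_C (32 and 2 reads) and ERVB2_1-I_MM (24 and 1 reads) had the largest ratios of the comparison, 7.54 (1.92 to 64.9) and 11.3 (1.84 to 465). Those intervals show how little 1 or 2 WT reads fix. The related ERVB2_1A-I_MM held 14 and 14 reads and was 2.12-fold lower in PS19 (0.938 to 4.80).

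IAP elements, among the most active LTR elements of the mouse, pooled to 1.02 (0.943 to 1.09) over 16 names, which was 0.961 on transposon reads. Of these names 4 differed at least 1.5-fold and 2 intervals lay above 1. IAPLTR1_Mm held 17 and 3 reads, a ratio of 2.67 (0.772 to 14.2). IAPEz-int, with most of the group's reads, held 1380 and 659, levels of 4472 and 4533, a ratio of 0.986 (0.898 to 1.08). It stood higher in the ZBP1 library, at 6351. The gammaretroviral ratio exceeded the IAP ratio by 0.37 on the log2 scale (0.22 to 0.53). The 5 names of ETn and MusD, another active group, pooled to 1.13 (0.981 to 1.30), with MMETn-int at 222 and 99 reads and a ratio of 1.06 (0.999 on transposon reads).

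MERVL is the class III retrovirus known for its burst in the early embryo, with MT2 as its LTR. Its 8 names pooled to 1.10 (1.04 to 1.16). MERVL_2A-int held 1203 and 506 reads, a ratio of 1.12 (1.01 to 1.24). MT2_Mm, the LTR of the youngest copies, held 137 and 66 reads, a ratio of 0.978 (0.724 to 1.33).

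ORR1 and MT are the large non-autonomous groups of the same class, and each took about 7 to 8% of the reads outside rRNA. The 18 ORR1 names pooled to 1.08 (1.05 to 1.10), with 16 above 1, 6 intervals above 1 and 1 below. On transposon reads the pooled ratio was 1.02 (0.996 to 1.04). The 12 MTA to MTE names pooled to 1.003 (0.980 to 1.03), which was 0.948 (0.927 to 0.970) on transposon reads. The ORR1 ratio exceeded that of MT by 0.10 on the log2 scale (0.06 to 0.15).

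Within ORR1 the ratio of the LTR names was higher in subfamilies lettered A to C than in those lettered D to G. The internal names did not keep to this order. ORR1A1-int had 2.83, ORR1D-int 1.44 (0.855 to 2.51), ORR1A3-int 1.20 (0.881 to 1.65) and ORR1B1-int 1.05 (0.869 to 1.26). The ORR1B1-int ratio lay below 1 on transposon reads. ORR1A1 held 966 and 363 reads, levels of 3130 and 2497, a ratio of 1.25 (1.11 to 1.42). ORR1C1 held 1166 and 463 reads, a ratio of 1.19 (1.06 to 1.32). ORR1A2, with most reads of the group (2992 and 1239), had 1.14 (1.06 to 1.22). The ratios of the 9 LTR names from ORR1A0 to ORR1C2 all lay between 1.09 and 1.25.

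The older LTR names lay lower. ORR1D1 (2775 and 1229 reads) had 1.06, ORR1D2 (1853 and 915 reads) 0.954, ORR1E (2663 and 1249 reads) 1.004 and ORR1F (1654 and 756 reads) 1.03. On transposon reads ORR1E turned to 0.9498 and ORR1F to 0.975. ORR1G held 573 and 315 reads, levels of 1857 and 2167, and was 1.17-fold lower in PS19 (1.01 to 1.34). Letters follow the age that the repeat nomenclature gives these subfamilies, A being the youngest. The MT names did not show the same order. MTA_Mm, the youngest, held 3368 and 1670 reads, 1.05-fold lower in PS19 with an interval that included 1 (0.992 to 1.12). MTD, the LTR name with most reads, held 6490 and 3220, levels of 21030 and 22150, and was 1.05-fold lower (1.01 to 1.10). MTC (4045 and 1813 reads) had 1.05, with an interval of 0.994 to 1.11, and 0.994 on transposon reads.

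The 32 MLT1, MST and THE1 names, ancient relatives of MT and ORR1, pooled to 0.934 (0.890 to 0.980), or 0.883 on transposon reads. Of these names 16 were above 1, with 1 interval above 1 and 4 below. MLT1D, with most reads (661 and 287), had 1.08 (0.943 to 1.25). MLT1C2 held 480 and 308 reads, levels of 1555 and 2119, and was 1.36-fold lower in PS19 (1.18 to 1.57). MLT1K held 81 and 66 reads and was 1.73-fold lower (1.23 to 2.42). The interval above 1 was that of MLT1E3, with 103 and 28 reads and a ratio of 1.73 (1.13 to 2.73). ORR1 exceeded this group by 0.21 on the log2 scale (0.13 to 0.28).

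The 69 LTR-numbered, MLT2 and MER names, remnants that mostly predate the rodents, pooled to 0.965 (0.908 to 1.03) and spread widely. Past 2-fold lay 7 upwards (10.1%) and 4 downwards (5.80%), against 4.92% and 2.95% of all names compared. The median of the group was only 41 reads per name. These shares were near the 9.52% and 5.08% of all transposon names under 100 reads. LTR33 held 52 and 43 reads and was 1.76-fold lower in PS19 (1.14 to 2.68). LTR37A held 37 and 5 reads, a ratio of 3.49 (1.37 to 11.4). HERV16-int held 9 and 14 reads and was 3.30-fold lower (1.33 to 8.65).

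The 49 RMER and 159 RLTR and MLTR names each pooled close to the class, at 1.08 and 1.07, and held ratios on both sides of 1. RMER6A held 1166 and 407 reads, a ratio of 1.35 (1.20 to 1.51). Its relative RMER6C held 535 and 317 reads and was 1.26-fold lower in PS19 (1.09 to 1.45). RMER5 held 652 and 390 reads and was 1.27-fold lower (1.12 to 1.44), the lowest ratio among the names with at least 1000 reads. RMER6A and RMER6C thus lay on opposite sides of 1, with intervals that did not meet.

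The RLTR and MLTR group held 13 of the names past 2-fold, 7 higher in PS19 (4.40% of its 159 names) and 6 lower (3.77%). Over all names compared the shares were 4.92% and 2.95%. RLTR53_Mm held 74 reads in PS19 and 14 in WT, a ratio of 2.49 (1.39 to 4.77). MLTR31C_MM held 45 and 6, a ratio of 3.53 (1.503 to 10.1). RLTR31M held 76 and 15, a ratio of 2.39 (1.36 to 4.47). These members of the RLTR31 series had company below 1, since RLTR31A_Mm held 34 and 28 reads and was 1.75-fold lower in PS19 (1.02 to 2.97).

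RLTR9D held 54 reads in PS19, 8 in WT and 13 in the ZBP1 library. Both PS19 libraries stood at 175, against 55.0 in WT, and the ratio of the ZNA libraries was 3.18 (1.504 to 7.74). RLTR9D was listed for that high ratio, so a WT level below that of the ZBP1 library is likely from the choice alone. RLTR9D2 went the other way, with 8 and 14 reads and a level 3.72-fold lower in PS19 (1.45 to 10.2). RLTR10F (6 and 17 reads) was 6.02-fold lower (2.26 to 18.6) and RLTR44B (5 and 15 reads) 6.37-fold lower (2.20 to 22.4). RLTR9D and RLTR9D2, of 1 stem, thus fell on opposite sides of 1, though both were thinly covered.

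**Figure D4:**
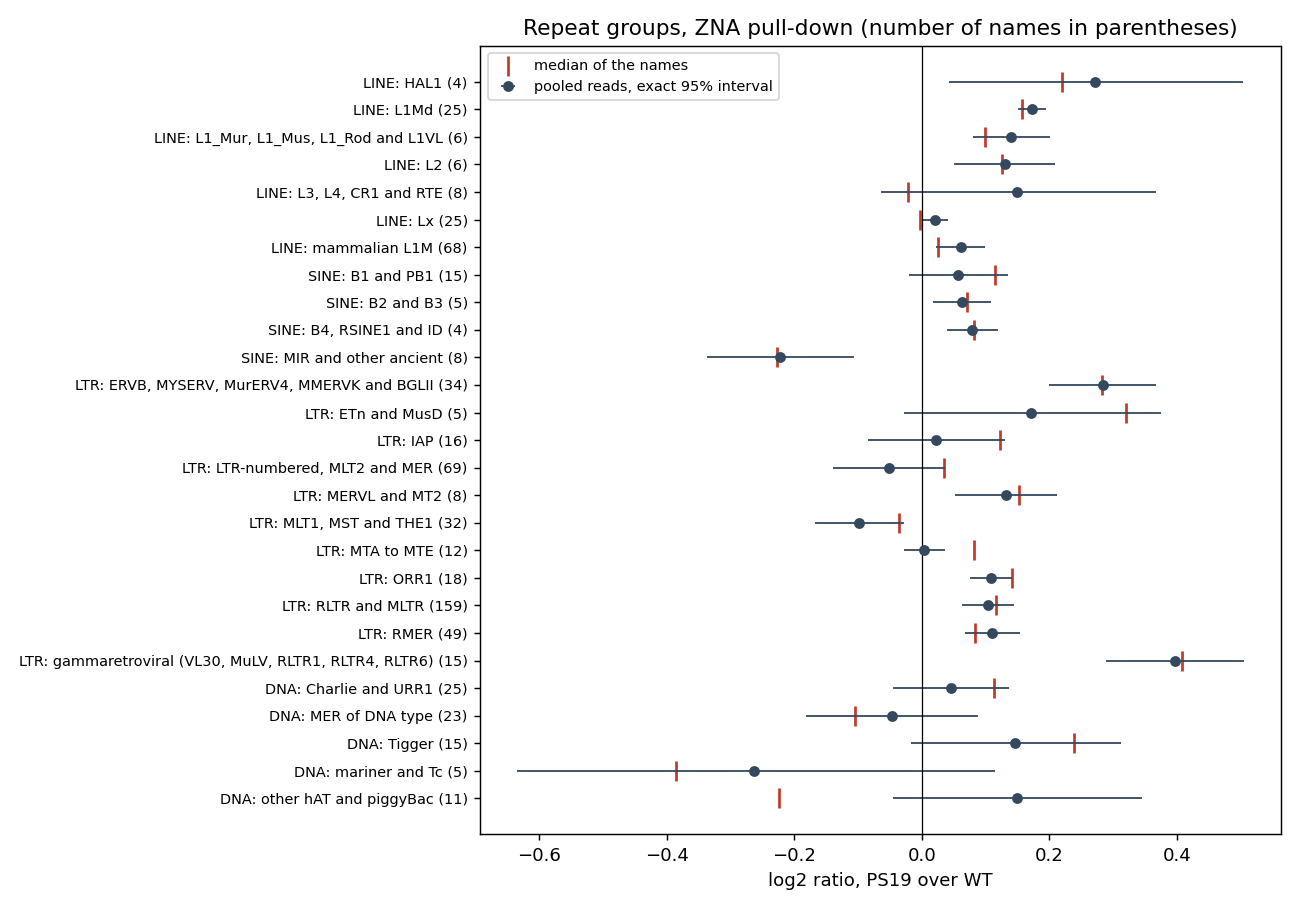
Pooled log2 ratio of PS19 over WT (points, with 95% intervals for counting error) and median log2 ratio over names for each of the 27 groups of repeats. Gammaretroviral (ratio 1.32), L1Md (1.13) and ERVB-type (1.22) groups lie above 0, and MIR (0.858) and MLT1 (0.934) groups below.

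Internal parts were then set against the LTRs of their own families, which shows whether the 2 parts of a family differed between the libraries alike. The 71 internal names compared pooled to 1.12 (1.09 to 1.16) and the 346 other names of the class to 1.05 (1.03 to 1.06), or 1.06 and 0.989 on transposon reads, a log2 difference of 0.10 (0.06 to 0.15). Of the 71, 48 were above 1, and 3 passed 2-fold in each direction. In 35 families, which held 45 of the internal names, both parts could be set side by side. The internal ratio was above the LTR ratio in 21 families and below it in 14. The median log2 difference was 0.13, with quartiles of -0.15 and 0.39. The interval of the difference lay above 0 in 4 families and below 0 in 1.

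RLTR44 differed most of the 4. Its internal name held 85 reads in PS19 and 28 in WT, a ratio of 1.43, and its LTR names held 64 and 53, a ratio of 0.569. The internal ratio exceeded the LTR ratio 2.51-fold (1.38 to 4.60). ORR1A1 came next. ORR1A1-int held 66 reads in PS19, 11 in WT and 17 in the ZBP1 library, with levels of 213.9, 75.7 and 228.3. WT was lowest, as is likely for a name listed for its high ratio of PS19 over WT. Its ratio of 2.83 (1.48 to 5.94) exceeded the 1.25 of its LTR 2.25-fold (1.16 to 4.79).

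RLTR1B, a gammaretroviral family, had 113 and 30 reads on its internal name and 117 and 54 on its LTR, ratios of 1.77 and 1.02 (the LTR ratio was 0.965 on transposon reads). The former exceeded the latter 1.74-fold (1.01 to 3.03). In MMERVK10C, whose LTRs are the RLTR10 names, the internal names held 782 and 354 reads and the LTRs 365 and 212. The internal ratio of 1.04 exceeded the LTR ratio of 0.811 1.28-fold (1.03 to 1.59). Internal reads made up 68.2% of this family in PS19 and 62.5% in WT. The LTR ratio lay below 1 on both scales. The internal ratio is smaller than the factor of 1.06 between the scales, so on transposon reads it lay below 1 too.

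MamGyp, an ancient gypsy-like element, differed in the opposite direction. MamGyp-int held 38 reads in PS19 and 43 in WT, levels of 123.1 and 295.8, and was 2.40-fold lower in PS19 (1.52 to 3.82). In the ZBP1 library its level was 120.8 from 9 reads, near that of the PS19 ZNA library, but the name was listed for its low ratio. Its LTR names held 17 and 5 reads, and the internal ratio was 0.260 of theirs (0.0692 to 0.835).

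Each of the 10 families with most reads had an interval that included 0 on the log2 scale, among them IAP, MERVL and MTE. That ranking counts LTR reads too, and some of the 10 had few internal reads. MT held 43 in PS19 and 20 in WT, and RMER6 held 54 and 19. MMERVK10C, with 782 and 354 internal reads, was not among the 10, and its interval lay above 0. IAP internal names held 1558 and 741 reads and IAP LTRs 340 and 141, ratios of 0.990 and 1.14, and the internal ratio was 0.872 of the LTR ratio (0.698 to 1.09). MERVL-int held 469 and 194 reads and the MT2 names 2506 and 1096, with 1.06 (0.879 to 1.28). The MT2 side pooled 6 names, and most of its reads lay on names other than MT2_Mm. MERVL_2A-int was not part of that pair, so the internal and LTR reads need not come from the same elements. MTE had 1.12 (0.963 to 1.30) from 670 and 273 internal reads. Of the smaller families, ETn internal names held 590 and 251 reads and ETn LTRs 106 and 40, with 0.887 (0.583 to 1.33). The VL30 internal names held 63 and 15 reads and their LTRs 39 and 15, with 1.62 (0.653 to 3.98). The 2.25-fold value of ORR1A1 lay outside the intervals of IAP, ETn, MERVL and MTE, but not outside that of VL30. The interval of ORR1A1 itself, 1.16 to 4.79, overlapped those of ETn, MERVL and MTE. Because ORR1A1-int was listed for its high ratio, its value does not set it apart from these families. RLTR4_MM-int could not be placed, because its LTR name RLTR4_Mm held 7 and 1 reads.

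**Figure D5:**
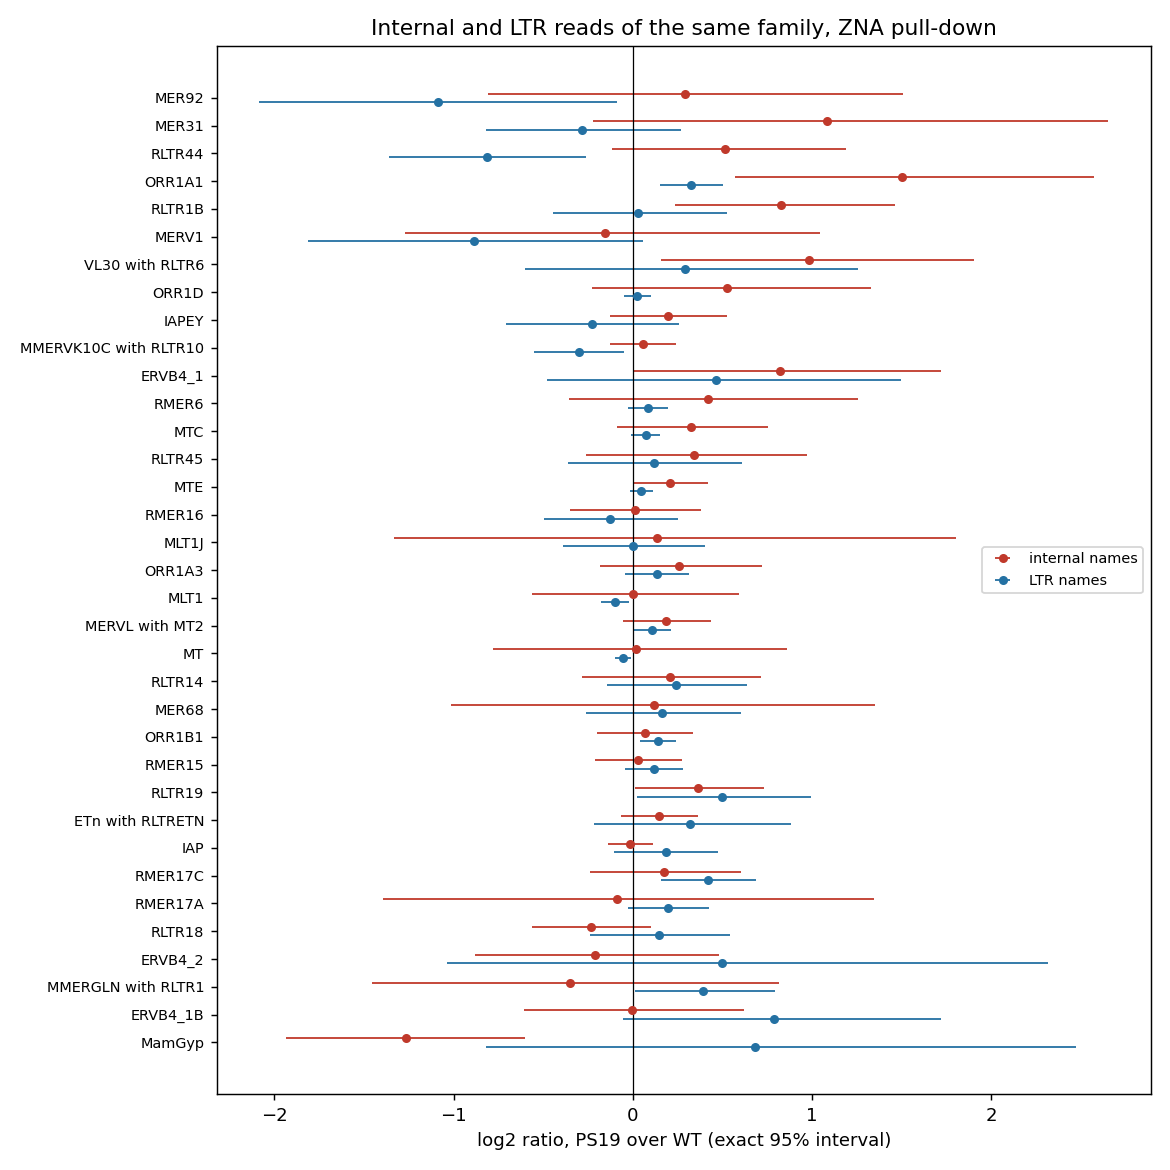
For each of 35 LTR families, the PS19 over WT ratio of the internal names and of the LTR names, as log2 values. The internal value lies to the right of the LTR value in 21 families, with the largest gap in the other direction for MamGyp.

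DNA transposons took 2.08% of the reads outside rRNA in PS19 and 2.02% in WT, a pooled ratio of 1.03 (0.986 to 1.08), or 0.974 (0.932 to 1.02) on transposon reads. Past 2-fold lay 10 of the 79 names, 6 higher in PS19 (7.59%) and 4 lower (5.06%), against 4.92% and 2.95% of all names compared. Of the intervals, 7 lay above 1 and 5 below. The median log2 ratio was -0.02. Of the 6 higher names, 4 were Tigger elements.

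Tigger names are non-autonomous or dead relatives of pogo transposons. The 15 of them pooled to 1.11 (0.988 to 1.24), with 4 intervals above 1 and 1 below. Tigger19b held 46 reads in PS19, 6 in WT and 11 in the ZBP1 library, with levels of 149.1, 41.3 and 147.7, a ratio of 3.61 (1.54 to 10.3). Tigger15a held 42, 8 and 12, with levels of 136.1, 55.0 and 161.1, a ratio of 2.47 (1.15 to 6.10). In both, WT stood below the PS19 libraries of either antibody. Both names were listed for a high ratio of PS19 over WT, so a low WT level follows from the choice. Tigger6a held 75 and 17 reads, a ratio of 2.08 (1.22 to 3.75), and Tigger17d 33 and 6, a ratio of 2.59 (1.07 to 7.56).

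The better covered Tigger names did not share this. Tigger17a held 193 and 125 reads, levels of 625.4 and 859.9, and was 1.37-fold lower in PS19 (1.09 to 1.73), although Tigger17d of the same stem was higher. Tigger1 held 203 and 81 reads, a ratio of 1.18 (0.908 to 1.55). Tigger5b_Glire held 149 and 76 reads, a ratio of 0.924 (0.696 to 1.23).

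The hAT-type names with most reads were close to 1. RCHARR1 held 900 and 395 reads, a ratio of 1.07 (0.952 to 1.21). URR1A (503 and 244 reads) had 0.971 and URR1B (512 and 246 reads) 0.980. FordPrefect held 452 and 163 reads, levels of 1465 and 1121, a ratio of 1.31 (1.09 to 1.57), and stood at 3330 in the ZBP1 library. MER33 held 60 and 46 reads and was 1.63-fold lower in PS19 (1.08 to 2.43). The hAT names at least 2-fold lower included BLACKJACK with 19 and 19 reads, Charlie29b with 10 and 13, and Arthur1B with 21 and 20. MMAR1, a mariner element, held 68 and 32 reads, a ratio of 1.001 (0.648 to 1.58), or 0.947 on transposon reads.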

How the data were processed

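Whole-number read counts per repeat name were used as the authors deposited them, 1 table per library, with no normalization. Per the submitters' processing notes, Trim Galore 0.6.5, STAR 2.5.3a, featureCounts 2.0.4 and the mouse build mm39 were used. The strand setting and the handling of reads with many genomic matches, which can move reads between related names, are not given in the sources used here.

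Names were assigned to classes and groups by patterns written after the names were seen, since the files give no class. RMER1A to RMER1C, RMER30 and IMPB_01 were left unassigned. Ratios carry exact conditional 95% intervals, and family differences exact conditional odds-ratio intervals. Differences between groups use a normal approximation on the log scale. No p-value was computed, as each group has 1 library. MMERVK10C-int and RLTR10-int were joined, and MT-int was set only against MTA, MTB and MTD names without an internal name of their own.

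Named repeats were, per class, the 5 with most reads, the 5 highest and the 5 lowest ratios among names with at least 50 reads, the name with most reads in each group (75 in all), and the parts of the LTR families. All other names printed were chosen after their values were seen. The repeats, groups and lists were chosen with earlier results of these data known.

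The steps were tested on simulated data. TMM factors came from edgeR 4.0.16 in R 4.3.3. The other steps ran in Python 3.11.15 with scipy 1.17.1, pandas 2.3.3 and numpy 2.4.6, and figures were drawn with matplotlib 3.10.9.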

Additional observations from a re-analysis of the deposited data

How the results depend on the processing

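On the reads outside rRNA, 35 of the 711 names compared passed 2-fold upwards in PS19 and 21 downwards. TMM factors gave 30 and 24, scaling to transposon reads 28 and 26, and a pseudocount of 5 on the level scale 29 and 19. Scaling to all reads with rRNA gave 565 and 3. Keeping the 1063 names with a read in each library gave 79 and 146, but there equal counts already lie past 2-fold lower. Keeping the 378 names with at least 100 reads gave 2 and 5, of which none was a transposon. A limit of 1.5-fold gave 83 and 62, and 4-fold gave 6 and 4. Median log2 ratios of all names, LINE, SINE, LTR and DNA in that order were 1.31, 1.30, 1.31, 1.34 and 1.21 with rRNA included, and -0.0020, -0.016, -0.0056, 0.028 and -0.10 on transposon reads. TMM gave 0.021, 0.0073, 0.017 and 0.051 for all, LINE, SINE and LTR. With a read in each library, all, LINE, LTR and DNA had 0.029, 0.045, 0.084 and -0.086. With at least 100 reads SINE had 0.045. The median internal minus LTR difference was 0.13 under each scaling, and 0.10 over the 19 families left at 100 reads. Of the 670 names, 45 turned to the other side of 1 under TMM and 66 on transposon reads, where intervals lay above 1 for 65 and below 1 for 60. Leaving out a library was not possible with 1 per group. Depth limits single names: under 100 reads, intervals span several fold, and the spread between mice is unknown.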

Other observations

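Names that the patterns left without a class held 1.08% of the reads outside rRNA in PS19 and 1.07% in WT. RMER1B held 1453 and 656 reads, a ratio of 1.04 (0.951 to 1.15). RMER1A held 1177 and 570 reads, a ratio of 0.973 (0.879 to 1.08). Their levels in the ZBP1 library, 6821 and 5613, lay above those of both ZNA libraries.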
